A study of Mus musculus with 8 samples.

Results

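The transcripts examined here encode the NF-κB subunits *Nfkb1*, *Nfkb2*, *Rela*, *Relb* and *Rel*, the inhibitors *Nfkbia* and *Nfkbie*, and 3 regulators of the pathway, *Tnfaip3*, *Traf3* and *Map3k14*. They were chosen by symbol to cover the canonical and the alternative arm of the pathway, and they make up 10 of the 46517 genes in the deposited table. Each of the 10 was found under 1 Ensembl identifier, and all 10 passed the filter on low values. The cells were osteoclasts, the multinucleated cells that resorb bone, grown from the marrow of *Elmo1*-/- mice, which lack *Elmo1* in all tissues, and of *Elmo1*+/- controls, which keep 1 copy and are titled WT in the library names. The mice were 6 to 8 weeks old, with 4 mice and 4 libraries of each genotype, and both groups received the same culture: 10% L929-conditioned medium as a source of M-CSF and 50 ng/ml GST-RANKL for 7 days. The methods place 2 mice of each genotype in each experiment without naming them, and the sources used here do not say what the library numbers 1 to 4 stand for.

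NF-κB is a family of dimeric transcription factors held inactive in the cytoplasm by IκB proteins. In the canonical arm, the IκB kinase complex marks IκBα for destruction and releases dimers of p50 with RelA or c-Rel. In the alternative arm, the kinase NIK is kept low by TRAF3 until receptors such as RANK recruit TRAF3, after which p100 is cut to p52 and pairs with RelB. RANKL acts on osteoclast precursors through RANK, which engages both arms, and precursors that lack both p50 and p52 do not become osteoclasts. All values below are transcript levels and do not report cleavage, nuclear entry or DNA binding of the proteins.

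*Elmo1* itself was read as a check of the labels, and it lay between 274 and 316 normalized counts in the *Elmo1*-/- libraries and between 1423 and 1769 in the controls. The libraries held 20905502 to 40846651 reads on genes, and the least counted value of any NF-κB gene rested on 468 reads. The strongest difference among the 8 libraries was not between the genotypes: the first principal component took 62.3% of the variance and set the libraries numbered 1 and 2 apart from those numbered 3 and 4 in both genotypes, with *Elmo1*-/- library 2 nearest to the middle and *Elmo1*-/- library 1 farthest out. All 12 osteoclast markers examined, among them *Acp5*, *Ctsk* and *Calcr*, were higher in libraries 3 and 4 by limma, and the summed normalized count of the 12 was 464673 to 711393 in libraries 1 and 2 against 1055460.2 to 1201005 in libraries 3 and 4. These are bulk cultures, in which a larger share of osteoclasts and more RNA per osteoclast cannot be told apart. Both comparisons were therefore made for the NF-κB genes, that of the genotypes, which the study was designed for, and that of the library numbers, which was made after the separation had been seen.

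Several of the 10 genes are themselves known targets of NF-κB, and their promoters are shown for that reason. RefSeq start sites (GRCm38.p6) were found for 8 of the 10 genes, with 11 promoters in all; *Nfkb1* and *Relb* had none in the table used. In the 250 bases before the start site, a match to the kappaB consensus on either strand was present in 8 of the 11 promoters. These came from 6 of the 8 genes. Over 32851 promoters of the same length the share was 3.90%, counted per promoter. The 11 hold 3 windows of *Nfkb2* and 2 of *Tnfaip3*, and known targets were among the genes. The shares are therefore a description and not a test. The 4 windows below are printed 5′ to 3′ on the strand of the gene, end at the base before the start site and carry the match in capitals; they are the ones of the 6 genes that hold a match and have at most 1 base inside an annotated exon. The coordinates are chr12:55492648-55492897 (minus strand) for *Nfkbia*, chr17:45555450-45555699 (plus strand) for *Nfkbie*, chr11:23770970-23771219 (minus strand) for *Rel* and chr12:111166120-111166369 (plus strand) for *Traf3*.
*Nfkbia*: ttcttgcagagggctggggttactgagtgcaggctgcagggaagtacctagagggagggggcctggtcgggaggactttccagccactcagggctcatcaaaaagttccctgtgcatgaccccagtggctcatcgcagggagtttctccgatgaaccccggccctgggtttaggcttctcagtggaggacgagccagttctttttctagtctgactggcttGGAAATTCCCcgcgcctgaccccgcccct
*Nfkbie*: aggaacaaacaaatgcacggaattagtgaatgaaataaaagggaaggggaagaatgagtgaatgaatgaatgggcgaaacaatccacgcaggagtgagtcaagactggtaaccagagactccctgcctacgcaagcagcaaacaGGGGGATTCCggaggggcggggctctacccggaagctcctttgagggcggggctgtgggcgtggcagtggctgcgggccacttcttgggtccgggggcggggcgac
*Rel*: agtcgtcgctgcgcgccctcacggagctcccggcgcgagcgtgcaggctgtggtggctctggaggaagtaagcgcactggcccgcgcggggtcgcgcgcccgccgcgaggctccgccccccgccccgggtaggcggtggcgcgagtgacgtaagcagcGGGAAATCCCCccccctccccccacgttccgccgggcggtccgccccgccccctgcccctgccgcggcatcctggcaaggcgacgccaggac
*Traf3*: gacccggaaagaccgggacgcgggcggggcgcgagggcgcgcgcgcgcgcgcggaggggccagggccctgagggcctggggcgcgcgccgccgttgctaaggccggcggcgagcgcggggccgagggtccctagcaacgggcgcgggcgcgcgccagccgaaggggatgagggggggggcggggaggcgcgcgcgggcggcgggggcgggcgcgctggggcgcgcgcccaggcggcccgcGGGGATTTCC
The match began 29 bases before the start site in *Nfkbia*, 106 in *Nfkbie* and 10 in *Traf3*, and in *Rel* the capitals cover 2 overlapping matches that began 92 and 91 bases before it. In *Tnfaip3* the nearest match, GGAAATCCCC, began 12 bases before 1 of its 2 start sites, and the other window held none. *Nfkb2* had matches in each of its 3 windows, including GGGAATTCCC at 39 bases and GGGGCTTTCC at 11 bases before the most upstream of these 3 start sites. From the most upstream on, 250, 167 and 234 of the 250 bases of these windows lay inside annotated exons. The 2 windows farther downstream overlap. No match was found in the windows of *Rela* and *Map3k14*. A match is a stretch of letters and not a measured binding site, and no binding was measured here.

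Corrected for the length of their exons, the 10 genes spanned a wide range of levels, with the inhibitor *Nfkbia* at the top. *Nfkbia* had 5355 ± 431 normalized counts per kb of exon (SD, n = 8 libraries), 4.36-fold above the next gene, and its lowest library (4639) lay above the highest library of any other member. *Nfkb2* followed with 1229 ± 40.6 per kb and *Rela* with 1012 ± 91.3 per kb, and the libraries of these 2 genes overlapped. *Nfkbie* (585 ± 44.7 per kb), *Relb* (486 ± 48.1), *Tnfaip3* (449 ± 88.9), *Nfkb1* (389.6 ± 25.6) and *Traf3* (347 ± 30.4) formed a middle group in which each gene overlapped with its neighbour in the order. *Rel* at 136 ± 14.4 per kb and *Map3k14* at 116 ± 18.5 per kb were lowest, overlapped with each other and lay below every library of the other 8 genes. The length used was the union of all annotated exons, which is 12.06 kb for *Nfkb1*. With the longest principal transcript instead (4.12 kb), *Nfkb1* had 1141 ± 75.0 per kb and moved from rank 7 to rank 4. *Nfkbie* moved from rank 4 to 7 and *Rel* changed places with *Map3k14*, while *Nfkbia*, *Nfkb2* and *Rela* stayed at ranks 1 to 3. By that length *Nfkbia* had 5463 ± 440 and *Nfkb2* 1794 ± 59.3 per kb, a smaller lead than the 4.36-fold above.

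**Figure D1:**
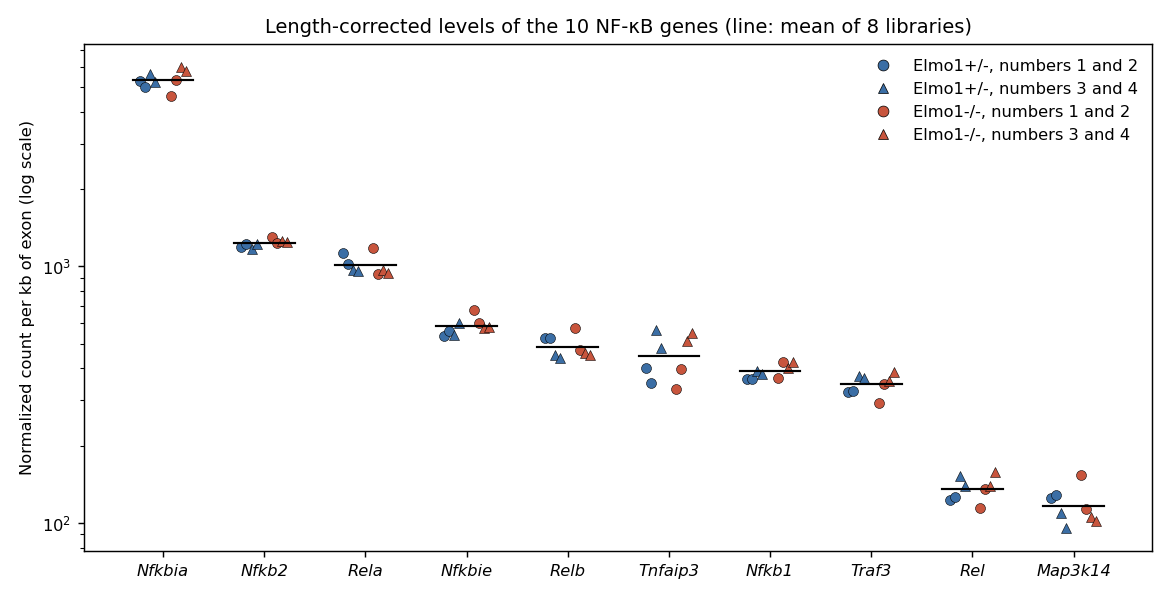
Normalized count per kb of annotated exon (log axis) of the 10 NF-κB genes, ordered by their mean over 8 libraries (line); each point is 1 library, coloured by genotype and shaped by library number. *Nfkbia* stands above all others at 5355 per kb, and *Rel* and *Map3k14* lie lowest, at 136 and 116 per kb.

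Between the genotypes, none of the 10 genes passed the threshold. By limma on log2(normalized count + 1), 0 of the 10 had an adjusted p under 0.05, against a background of 0.00707% of the 14139 genes tested, which is 1 gene, *Elmo1*. The log2 differences, *Elmo1*-/- minus *Elmo1*+/-, ran from −0.02 in *Rela* to 0.12 in *Nfkbie*, with a median of 0.02 where all genes tested had a median of −0.0031, and every adjusted p was 0.9999 by limma. At an unadjusted p under 0.05 the counts were 0 of the 10 and 133 of all genes, and edgeR and DESeq2 on the recovered reads also called 0 of the 10. The standard error of the log2 difference ran from 0.06 in *Nfkb2* (95% interval −0.05 to 0.20) to 0.19 in *Tnfaip3* (−0.44 to 0.42). This fit held no term for the library set, so the variation between the sets counted as error. With the set as a term, 0 of the 10 and 411 of all genes had an unadjusted p under 0.05 by limma. The interval of *Tnfaip3* was then −0.19 to 0.17.

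The precursor subunits were higher in *Elmo1*-/- in all 4 same-numbered pairs of libraries, without a call. All 4 pairs moved in 1 direction for these 2 of the 10 genes and for 9.51% of all genes tested. From 2 genes beside this share nothing particular to the 10 can be read. In the pair numbered 1, *Nfkb1* had 4370.3 and 4409, a gap under its counting error (1.47%). *Nfkb1* (chr3:135584655-135691547), which encodes p105 and its product p50, was counted at 4370.3, 4404, 4708 and 4599.8 (normalized) in *Elmo1*+/- libraries 1 to 4 and 4409, 5109.9, 4860.4 and 5127 in *Elmo1*-/- libraries 1 to 4. The genotypes overlapped through *Elmo1*-/- library 1, while the other 3 *Elmo1*-/- libraries lay above all controls, and the log2 difference was 0.11 (95% interval −0.05 to 0.27). *Nfkb2* (chr19:46304320-46312385), which encodes p100 and its product p52, had 5432, 5591, 5369 and 5580.0 normalized counts in the control libraries 1 to 4 and 5951, 5669, 5770.3 and 5714 in *Elmo1*-/- libraries 1 to 4. Here every *Elmo1*-/- library lay above every control, and such a lack of overlap, in either direction, was found for 0.941% of all genes tested, and in this direction for 0.502%. The nearest values were 5591 in control library 2 and 5669 in *Elmo1*-/- library 2, a gap about the size of the counting error (1.34%). The genotype means of *Nfkb2* were 5493 ± 109.9 and 5776 ± 124 (SD, n = 4 each), a log2 difference of 0.07 (standard error 0.06). The exact two-sided permutation p was 0.0286, the smallest that 4 against 4 libraries can give. It follows from the lack of overlap and was not adjusted for the 10 genes. Over the other members the same permutation p ran from 0.114 to 0.971. Permuted within the 4 same-numbered pairs, the exact two-sided p was 0.125 for *Nfkb2* and for *Nfkb1*, the smallest that 4 pairs can give. It follows from all 4 pairs moving in 1 direction. In *Nfkb2* any pairing of the libraries would give the same p, since its genotypes did not overlap. The sources do not say what the numbers that define these pairs stand for. The adjusted p of both genes was 0.9999 by limma. *Nfkb2* was the only one of the 10 whose genotypes did not overlap. The log2 difference of *Nfkb2* was 0.08 within libraries 1 and 2 and 0.07 within libraries 3 and 4. *Nfkb2* shares 299 exon bases, 6.52% of its exon length, with *Psd* on the opposite strand, which reached at most 365 normalized counts, and 531 bases with the antisense transcript AC114539.1; the strand setting of the counting is not given in the sources used here. *Nfkb2* had the lowest coefficient of variation of the 10 over all 8 libraries, 3.3%, where counting error alone would give 1.34%.

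**Figure D2:**
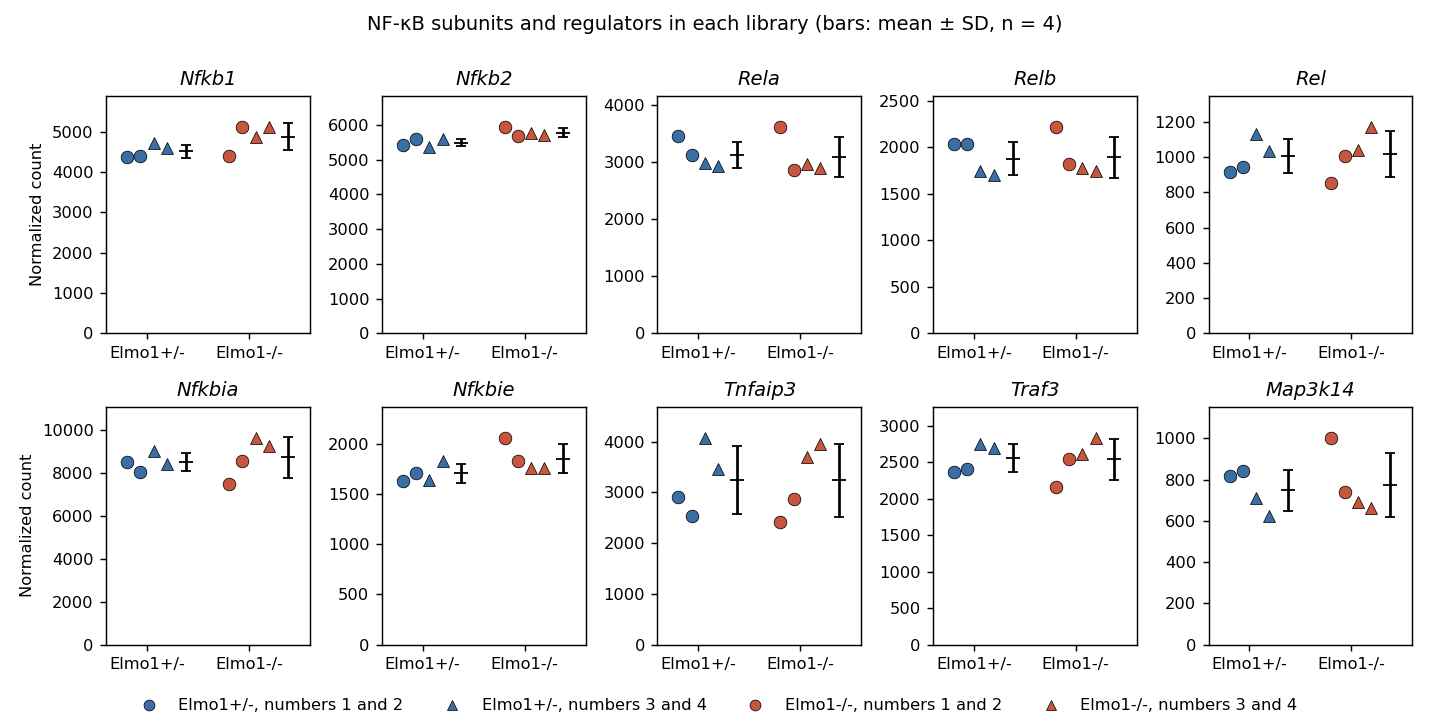
Normalized counts (axes from 0) of the 10 NF-κB genes in each of the 8 libraries, by genotype and, in shape, by library number, with mean ± SD of each genotype (n = 4). The genotypes overlap in 9 panels and not in *Nfkb2*, whereas circles and triangles part in *Relb*, *Rel*, *Tnfaip3*, *Traf3* and *Map3k14*.

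In the comparison of library numbers, 5 of the 10 genes differed, against a background of 32.6% of all genes tested (4603 of 14139), a share from which nothing particular to the 10 can be read. *Tnfaip3*, *Rel* and *Traf3* were higher in libraries 3 and 4, and *Map3k14* and *Relb* were lower by limma, in a fit that also held the genotype. The same 5 genes had no overlap between the 2 sets of 4 libraries, which held for 34.0% of all genes. The median of the absolute log2 difference was 0.18 over the 10 and 0.21 over all genes. The libraries were split along the axis that separated them most, so these p-values are no independent evidence that the sets differ. Library numbers and the experiment or any other batch cannot be told apart, and the part of the osteoclast markers, which moved with the same split, in these differences was not tested.

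*Tnfaip3* (chr10:19000910-19015657), which encodes A20, an enzyme that edits ubiquitin chains and shuts off canonical signaling, showed the largest difference of the 10. Its normalized counts were 2905 and 2543 in *Elmo1*+/- libraries 1 and 2 and 2410.5 and 2879 in *Elmo1*-/- libraries 1 and 2. They were 4078 and 3461 in *Elmo1*+/- libraries 3 and 4 and 3702 and 3953 in *Elmo1*-/- libraries 3 and 4. The 2 sets did not overlap within either genotype, with means of 2685 ± 246 and 3798 ± 274 (SD, n = 4 each), a 1.42-fold difference (log2 0.50, standard error 0.08, adjusted p = 0.00215 by limma). The coefficient of variation of *Tnfaip3* over the 8 libraries, 19.8%, was the highest of the 10, and counting error accounted for 1.78%. Its difference kept an adjusted p under 0.05 whichever library was left out, with log2 differences of 0.44 to 0.56. Within *Elmo1*-/- alone (2 against 2 libraries) the log2 difference was 0.54 with an adjusted p of 0.119, and within *Elmo1*+/- alone it was 0.47 with an adjusted p of 0.00509.

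The transcripts of NIK and TRAF3 moved in opposite directions between the 2 sets of libraries, and the NIK protein was not measured. *Map3k14* (chr11:103219762-103267472), which encodes NIK, the kinase that starts the alternative arm, had 816, 839, 1003 and 742 normalized counts in libraries 1 and 2 of *Elmo1*+/- and then of *Elmo1*-/-, and 713, 625, 690.3 and 664 in libraries 3 and 4 in the same order. It was lower in all 4 libraries numbered 3 and 4 (means 850.1 ± 109.9 and 673 ± 37.5, log2 −0.33, standard error 0.09, adjusted p = 0.0240 by limma). *Traf3* (chr12:111166370-111267153), whose product directs NIK to degradation, had 2373, 2409, 2163 and 2544 normalized counts in libraries 1 and 2 and 2748, 2699, 2614 and 2837 in libraries 3 and 4. Every library of the later numbers was higher (log2 0.20, standard error 0.06, adjusted p = 0.0372 by limma). The ratio of *Traf3* to *Map3k14* counts within a library was 2.91 and 2.87 in *Elmo1*+/- libraries 1 and 2, 2.16 and 3.43 in *Elmo1*-/- libraries 1 and 2, 3.86 and 4.32 in *Elmo1*+/- libraries 3 and 4, and 3.79 and 4.27 in *Elmo1*-/- libraries 3 and 4. The ratio was thus higher in every library numbered 3 or 4 than in any numbered 1 or 2. This follows from the 2 genes, each apart in its own direction, and is no further result. The mean of the ratio was 3.49 ± 0.716 in *Elmo1*+/- and 3.41 ± 0.904 in *Elmo1*-/- (SD, n = 4 each). *Map3k14* shares 135 exon bases with 1700028N14Rik on its own strand, which had at most 5.01 normalized counts.

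The 3 subunits with a transactivation domain did not move together. *Rel* (chr11:23736847-23770970), which encodes c-Rel, had 915, 943, 852 and 1007 normalized counts in libraries 1 and 2 of *Elmo1*+/- and then of *Elmo1*-/-, and 1131, 1035, 1042 and 1173 in libraries 3 and 4. It was higher in libraries 3 and 4 without overlap (log2 0.24, adjusted p = 0.0340 by limma). *Relb* (chr7:19606217-19629438), the partner of p52 in the alternative arm, had 2032, 2037, 2223 and 1825 normalized counts in libraries 1 and 2 and 1748, 1703, 1779.6 and 1749 in libraries 3 and 4. It was lower in libraries 3 and 4 without overlap (log2 −0.21, adjusted p = 0.0356 by limma), and its spread in those 4 libraries was small, 1745 ± 31.7 (SD). *Rela* (chr19:5637483-5648130), the main canonical subunit, had 3455, 3124, 3622 and 2864 normalized counts in libraries 1 and 2 and 2981, 2938, 2975 and 2900.1 in libraries 3 and 4. The 2 sets overlapped through *Elmo1*-/- library 2, and the log2 difference of −0.14 did not pass the threshold (adjusted p = 0.172 by limma). The ratio of *Relb* to *Rela* was 0.623 ± 0.0279 in libraries 1 and 2 and 0.592 ± 0.0108 in libraries 3 and 4 (SD, n = 4 each), and these values overlapped.

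The IκB genes and the precursor subunits gave no call between the sets. *Nfkbia* (chr12:55489410-55492647), which encodes IκBα, had 8521, 8049, 7469 and 8554 normalized counts in libraries 1 and 2 of *Elmo1*+/- and then of *Elmo1*-/-, and 9040.3, 8412, 9647 and 9274 in libraries 3 and 4. Most of the later libraries were higher, but *Elmo1*+/- library 4 lay within the range of libraries 1 and 2, and the log2 difference of 0.16 had an adjusted p of 0.0987 by limma (unadjusted 0.0430). The ratio of *Nfkbia* to *Rela* was 2.06 to 2.99 in libraries 1 and 2 and 2.86 to 3.24 in libraries 3 and 4, an overlap set by *Elmo1*-/- library 2. *Nfkbie* (chr17:45555703-45563169), which encodes IκBε, had 1635, 1709, 2062 and 1828 normalized counts in libraries 1 and 2 and 1646, 1836, 1758 and 1766 in libraries 3 and 4. It had the largest log2 difference between the genotypes of the 10, 0.12 (95% interval −0.05 to 0.29, adjusted p = 0.9999 by limma), and the genotypes overlapped through *Elmo1*+/- library 4. Without *Elmo1*-/- library 1 that difference was 0.07. Its direction by library number was opposite in the 2 genotypes, 0.06 in *Elmo1*+/- and −0.14 in *Elmo1*-/- on the log2 scale, with 2 libraries on each side and neither past the threshold. The other 9 genes kept the same direction in both genotypes. *Nfkb1* differed by 0.08 (adjusted p = 0.339 by limma) and *Nfkb2* by −0.01 (adjusted p = 0.866 by limma) between the sets. The *Nfkb2* to *Nfkb1* ratio was 1.11 to 1.35 in libraries 1 and 2 and 1.11 to 1.21 in libraries 3 and 4.

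**Figure D3:**
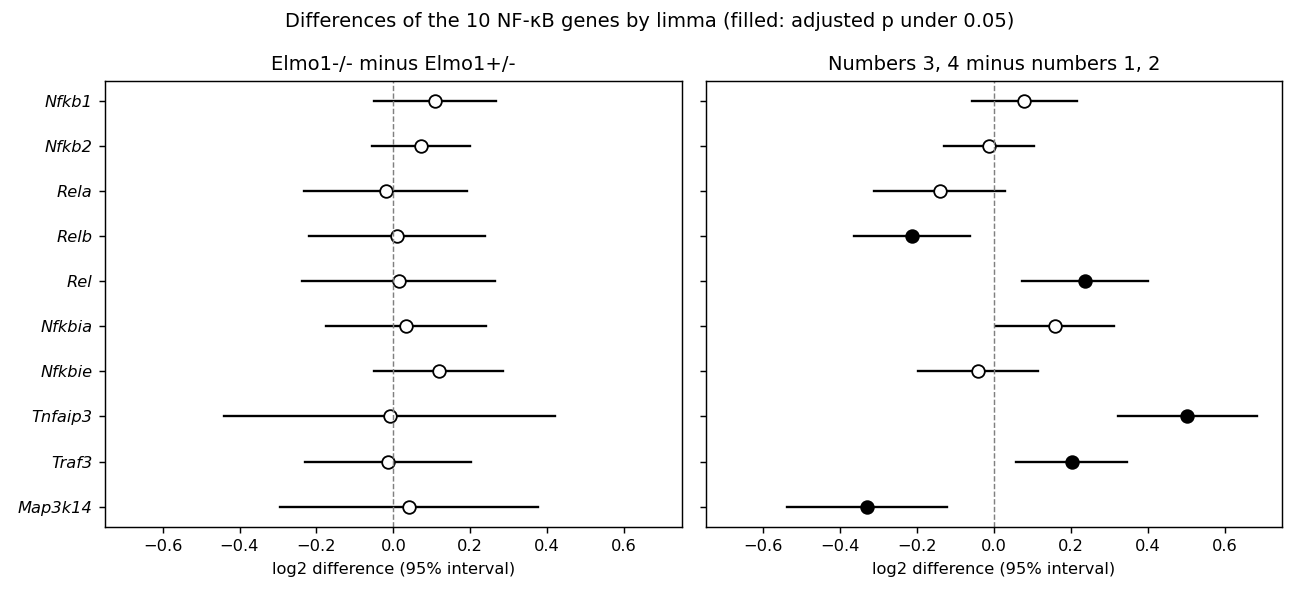
Log2 differences of the 10 NF-κB genes with 95% intervals from limma, for *Elmo1*-/- minus *Elmo1*+/- (left) and for library numbers 3, 4 minus 1, 2 (right); filled points have an adjusted p under 0.05. All 10 intervals on the left include 0, and 5 genes on the right are filled, from −0.33 in *Map3k14* to 0.50 in *Tnfaip3*.

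**Figure D4:**
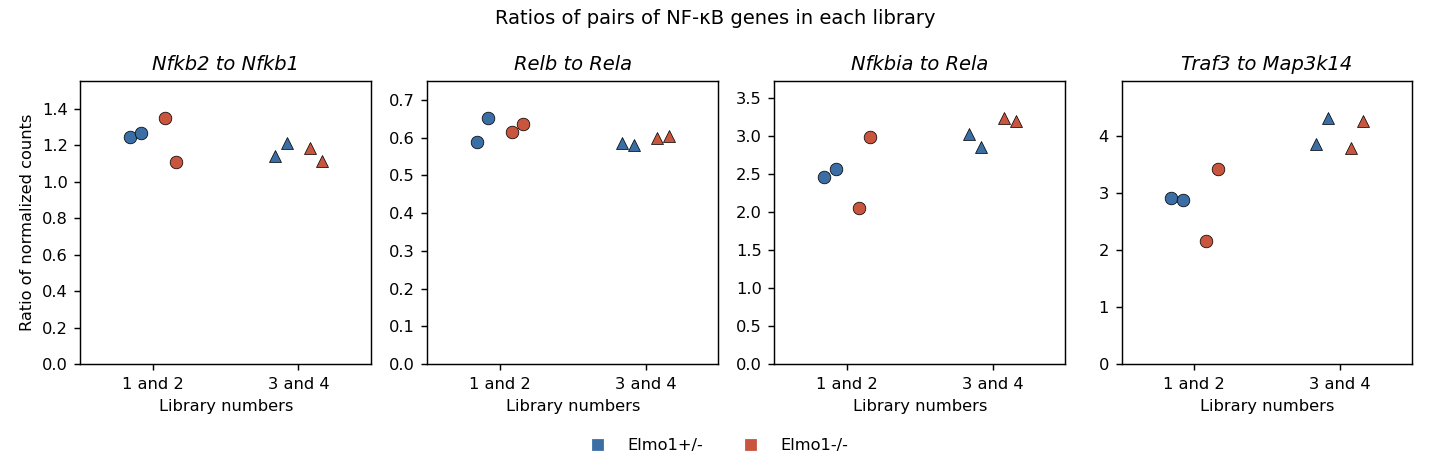
Ratios of normalized counts within each library, by library number (x axis) and genotype (colour), with axes from 0; these are descriptions without a test. The *Traf3* to *Map3k14* ratio lies between 2.16 and 3.43 in libraries 1 and 2 and between 3.79 and 4.32 in libraries 3 and 4, and the other 3 ratios overlap. That the first ratio parts follows from its 2 genes, each apart in its own direction.

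Of the 5 calls by library number, only that of *Tnfaip3* held in every fit with 1 library left out. The count of 5 fell to 1 without *Elmo1*+/- library 1 or 2 or *Elmo1*-/- library 3 or 4, fell to 2 without *Elmo1*+/- library 3 or 4 or *Elmo1*-/- library 1, and rose to 7 without *Elmo1*-/- library 2, where *Rela* and *Nfkbia* also passed. It was 4 within *Elmo1*+/- alone and 0 within *Elmo1*-/- alone, and 2 when genes with low values were kept in the adjustment. None of the 10 genes had a genotype difference that itself differed between the 2 sets of libraries (0 of 10, with a background of 0.0% of genes by limma, that is 0 of 14139 with 378 at an unadjusted p under 0.05, 0 of the 10 at an unadjusted p under 0.05, and 0 of the 10 by edgeR and by DESeq2). The largest such difference was in *Nfkbie*, whose log2 difference between the genotypes was 0.22 in libraries 1 and 2 and 0.02 in libraries 3 and 4 (interaction −0.20, adjusted p = 0.9999).

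The wider pathway gave the same picture by genotype. A list of 55 further genes was read, of which 54 passed the filter; *Il23a* did not, with at most 1.90 normalized counts. By genotype 0 of the 54 were called, and 0 had an unadjusted p under 0.05. By library number 21 of the 54 were called, 11 higher and 10 lower in libraries 3 and 4, beside the 32.6% of all genes.

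Among the 14 receptors and adaptors, 3 were higher and 4 lower in libraries 3 and 4 by limma, with a median log2 difference of −0.11 where all genes had −0.01. The higher genes were *Tnfrsf11a*, which encodes RANK (log2 0.40), its adaptor *Traf6* (0.37) and *Traf5* (0.35). *Tnfrsf11a* had 1864 to 2423 normalized counts in libraries 1 and 2 and 2660.2 to 3087 in libraries 3 and 4, without overlap. The lower genes were the TNF receptors *Tnfrsf1a* (−0.46) and *Tnfrsf1b* (−0.41), *Traf2* (−0.29) and *Myd88* (−0.20). *Birc2* and *Birc3*, the ubiquitin ligases that act with TRAF3 on NIK, were not called, with log2 differences of −0.03 and 0.01. By genotype the largest differences of this class were in *Birc3* (0.10) and *Myd88* (0.09), neither called.

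Among the 9 kinases, the IκB kinase subunits *Ikbkg*, which encodes NEMO (log2 0.36), and *Chuk*, which encodes IKKα (0.26), were higher in libraries 3 and 4 by limma. The related kinase *Ikbke* was lower (−0.50), with 7229 to 10181 normalized counts in libraries 1 and 2 and 5679 to 6162 in libraries 3 and 4. The other 6 were not called, among them *Ikbkb*, which encodes IKKβ (0.03). *Ikbkg* (−0.10) and *Ikbke* (0.06) also had the largest differences by genotype in this class, without a call.

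Among the 12 other IκB proteins and brakes, *Cyld*, a deubiquitinase that restrains NF-κB signaling, was higher in libraries 3 and 4 (log2 0.38, adjusted p = 0.00551 by limma). The linear-chain deubiquitinase *Otulin* (−0.26) and *Commd1* (−0.21) were lower, and the other 9 were not called, including *Nfkbid*, whose difference of −0.28 had an adjusted p of 0.0553. The largest differences by genotype were in *N4bp1* (0.13) and *Tnip3* (0.09), neither called.

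Of the 19 target genes tested, 5 were higher and 3 lower in libraries 3 and 4 by limma, with a median log2 difference of −0.05. The anti-apoptotic *Bcl2a1a* (log2 1.11), *Bcl2a1b* (0.98) and *Bcl2a1d* (0.66) were higher, as were *Il1b* (0.52) and *Gadd45b* (0.32). The *Bcl2a1* genes are near-identical copies, and how their shared reads were counted is not known. The immediate early gene *Ier3* (−0.92), the cytokine subunit *Ebi3* (−0.59) and the adhesion molecule *Icam1* (−0.28) were lower. *Tnf*, *Ccl3*, *Sod2* and *Tnfaip2* were among the 11 not called. By genotype the largest differences were in *Cxcl2*, which averaged 3834 ± 1347 normalized counts in the controls and 2888 ± 507 in *Elmo1*-/- libraries (SD, n = 4 each, log2 −0.36), and in *Ier3* (−0.25), and neither was called.

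**Figure D5:**
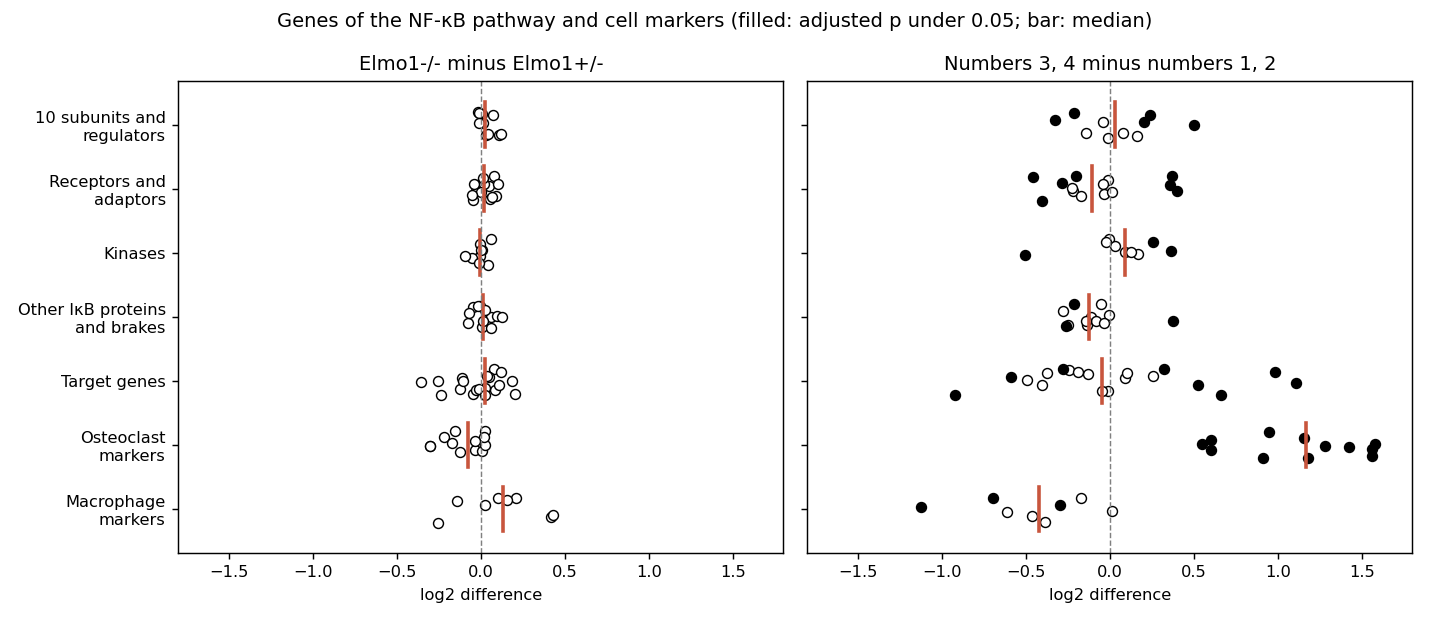
Log2 differences of each gene by class for the genotype (left) and library numbers (right); each circle is a gene, filled where the adjusted p from limma is under 0.05, and the bar is the class median. No gene is filled on the left, and on the right all 12 osteoclast markers are filled at positive values (median 1.17) while the NF-κB classes have filled genes on both sides of 0.

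The markers of other cells were read beside these results. Of 8 macrophage and monocyte markers, 3 were lower in libraries 3 and 4 (*Cd14*, *Mrc1* and *Cd74*) and 0 higher by limma, and their summed normalized count was 125535 to 142836 in libraries 1 and 2 and 98255 to 133095 in libraries 3 and 4. Of 9 neutrophil markers, only *S100a8* was called, lower in libraries 3 and 4, and the summed count was 13177 to 22647 and 10389 to 13966. Stromal markers summed to between 993 and 1694 normalized counts in all libraries with 0 of 5 tested genes called, and none of the 6 lymphocyte markers passed the filter, their sum being at most 12.3. By genotype 0 markers of any list were called. Their part in the differences of the NF-κB genes by library number was not tested.

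*Nfkb1*, *Nfkb2* and *Nfkbia* were also compared with all other genes for likeness of their pattern over the 8 libraries, as a description by Pearson's r of log2(normalized count + 1). The genes most like *Nfkb1* were *Dcaf17* (r = 0.986), *Gm9762* (0.974) and *Slc16a10* (0.972). Those most like *Nfkbia* were *Gm5113* (0.972), *Syde2* (0.961) and *C230037L18Rik* (0.959). *Nfkb2*, which varied least, had *Gm12185* (0.943), *Wdr33* (0.919) and *Mageh1* (0.909) as its nearest, and 4 of 14138 genes had an r over 0.9 with it, against 63 for *Nfkb1* and 134 for *Nfkbia*. The 8 libraries share the separation by number and are not independent points.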

How the data were processed

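RNA was taken from 4 *Elmo1*+/- and 4 *Elmo1*-/- osteoclast cultures, made into TruSeq mRNA libraries and sequenced as 75 bp paired reads. The submitters' processing notes name FastQC, STAR, featureCounts and DESeq2; the sources used here give no versions, genome build, annotation or strand setting. The authors deposited a normalized signal, each gene's count divided by 1 DESeq2 size factor per library. Their table also holds a mean, log2 fold change, standard error, statistic and p-values of their own comparison, which were not used. Undoing the size factors returned whole reads for 100% of values (within 0.01 of a read), with totals of 20905502 to 40846651.

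Symbols and coordinates came from GENCODE M21 (GRCm38) by identifier (46005 of 46517 matched), promoters from RefSeq. The test was limma 3.58.1 in R 4.3.3 (trend, robust) on log2(normalized count + 1) for the 14139 genes that reached 10 in 4 or more libraries, with Benjamini-Hochberg adjustment over all of them at 0.05; a fold change on this scale understates that of low genes. Alternatives used edgeR 4.0.16 and DESeq2 1.42.0 on the recovered reads, other scalings, filters and pseudocounts, each library left out and blocks. No 2 libraries of a genotype were copies (chi-square per gene 8.58 to 188). Deviations of same-numbered libraries correlated at 0.156 to 0.703, all over 0.1, which by the rule used pairs the libraries. Differently numbered libraries on the same side of the split (1 and 2, or 3 and 4) reached 0.0259 to 0.691, so the correlation is not particular to the number. The scripts were tested on simulated data.

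The 10 genes, the lists and the split by library number were chosen with earlier results of these data known. Every one of the 10 was named; of the other pathway genes, those past a threshold and the 2 with the largest difference per class and comparison. *Ikbkb*, *Birc2*, *Tnf*, *Ccl3*, *Sod2* and *Tnfaip2* were named for their role after their values were seen.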

Additional observations from a re-analysis of the deposited data

Results flagged for a closer look

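Each of the 10 genes was examined for a library that stood apart from the other 3 of its genotype, by the gap to the nearest library as a share of the range of the 4. In 2 of the 20 groups this share was above Dixon's 95% critical value for 4 samples, where chance gives about 1 in 20 for independent groups of like samples. The groups here share the same 8 libraries and each mixes the 2 sets of library numbers, so that rate does not strictly apply. Both flagged values were those of *Elmo1*-/- library 1, which also lay farthest out on the first principal component. *Rela* had 3622 normalized counts there, with a share of 0.854, and *Relb* had 2223, with a share of 0.840. Without this library the log2 difference between the genotypes was −0.10 for *Rela* and −0.07 for *Relb*, neither called by limma.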

How the results depend on the processing

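By genotype, 0 of the 10 NF-κB genes were called under all 20 alternatives, with adjusted p from 0.937 to 1.00. The replicate block called 0 of the 10 and 1 gene in all and changed no other call. The count of all genes was 2 with DESeq2, 2 within libraries 3 and 4 alone and 1 to 2 with a library left out. The sign of the genotype difference changed in 7 of the 10 genes. With a library left out it ran from −0.099 to 0.030 in *Rela*, −0.071 to 0.049 in *Relb*, −0.058 to 0.096 in *Rel*, −0.017 to 0.11 in *Nfkbia*, −0.12 to 0.12 in *Tnfaip3*, −0.069 to 0.061 in *Traf3* and −0.090 to 0.11 in *Map3k14*. Within libraries 1 and 2 alone it was −0.015 in *Relb*, −0.0041 in *Rel* and −0.051 in *Nfkbia*, and within libraries 3 and 4 alone 0.026 in *Tnfaip3*. *Nfkb1* (0.083 to 0.15), *Nfkb2* (0.058 to 0.081) and *Nfkbie* (0.019 to 0.22) were higher in *Elmo1*-/- in all 20 alternatives. The ends for *Nfkbie* were libraries 3 and 4 alone and libraries 1 and 2 alone. The alternatives reuse the same libraries, and the filters and blocks leave the difference itself unchanged, so a shared sign is no separate evidence. At an unadjusted p under 0.05, 1 of the 10, *Nfkb1*, appeared without *Elmo1*-/- library 1, and 0 in the other alternatives. The permutation within pairs was added after the data were seen.

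By library number, the count of 5 was 2 without a filter, 0 within *Elmo1*-/- alone, 4 within *Elmo1*+/- alone, 1 to 7 with a library left out and 5 under the other 7 settings. Without a filter more genes entered the adjustment, and within 1 genotype fewer libraries; the cause was not tested otherwise. Of all genes, 2863 to 6911 were called with a library left out (6911 without *Elmo1*-/- library 2) and 76 within *Elmo1*-/- alone, beside 4603. *Nfkb2* was at 0.023 with equal totals and at −0.027 to 0.0014 with a library left out, and *Nfkbie* at 0.056 within *Elmo1*+/- alone and −0.093 to 0.012 with a library left out. The other 8 genes kept their sign. The fits within 1 genotype were added after the data were seen. The interaction called 14 of all genes with DESeq2 and 0 to 239 with a library left out (188 without *Elmo1*-/- library 1, 239 without *Elmo1*-/- library 2), and 0 of the 10 in each of 16 alternatives.

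Counting error gave a coefficient of variation of 1.09% to 3.65% in the 10 genes, in each gene less than its own variation over the 8 libraries (3.3% to 19.8%).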
